A study of Mus musculus with 5 samples.

Results

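Gfi1 and Gfi1b encode a pair of closely related zinc finger repressors of blood formation, and Kdm1a, Rcor1, Hdac1 and Hdac2 encode the corepressor proteins with which they work. These 6 genes were chosen by name out of 21000 protein-coding genes with a curated transcription start site (TSS); the rule names them and uses no measured value, though they were proposed with earlier results of these data known. Of 135173 DNaseI hypersensitive sites (DHSs) listed over 5 stages of blood cell differentiation, 47 were assigned to them. A DHS counted for a gene as a promoter site where its edge lay within 1 kb of any annotated TSS of that gene. Any other DHS counted where its middle lay inside the gene, or up to 100 kb from the TSS with no TSS of another protein-coding gene nearer to it. DHSs of different stages that lay at the same place were joined into merged regions, of which the 6 genes had 23 out of 68846.

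GFI1 and GFI1B carry a short SNAG domain at the amino terminus and zinc fingers that bind DNA. The SNAG domain recruits the lysine demethylase LSD1, the product of Kdm1a, together with CoREST, the product of Rcor1, and the deacetylases HDAC1 and HDAC2, which remove activating marks from histones. In the embryo the repressors act where endothelial cells turn into blood cells, by shutting down the endothelial program. Later, GFI1 acts in stem cells, granulocytes and lymphocytes, and GFI1B in red cells and megakaryocytes.

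DNaseI-seq, which finds chromatin open enough for DNase I to cut, was performed on populations that were differentiated in culture from 1 mouse ES (embryonic stem) line of strain 129, which had a GFP reporter for Brachyury (Bry) and grew on feeder fibroblasts. Cells positive for the reporter (Bry.GFP+) were sorted as FLK1- mesoderm (MES), as FLK1+ hemangioblasts (HB) and as hemogenic endothelium (HE), which was Tie2+, Ckit+ and CD41-, and the later stages were CD41+ hematopoietic progenitors (HP) and CD11b+ macrophages (MAC). Each stage had 1 list of DHSs with positions alone (n = 1; the MAC label names 2 replicates together), so the lists give no replicate error or depth and allow no statistical test between stages, and every difference between stages below is a difference between single lists. A gene without a listed DHS may have had one below the threshold of the peak caller.

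The lists held from 17734 DHSs in HP to 37456 in MAC, and their median widths ran from 600 bp in MAC to 1200 bp in HE. Of the 6 genes for sorting markers, Itgam, which encodes CD11b, had a promoter DHS in MAC only, Tek, which encodes TIE2, in HE only, and T, which encodes Brachyury, in MES and HB but not in HE, which was also Bry.GFP+. The other 3 had one beyond the stages sorted as positive: Itga2b, which encodes CD41, in HP but also in CD41- HE, Kit in MES, HB and HP as well as HE, and Kdr, which encodes FLK1, in all 5 stages, FLK1- mesoderm included. Of 3 fibroblast genes (Col1a1, Col1a2 and Thy1), 3 had a promoter DHS in each of MES, HB and HE, 1 in HP and 0 in MAC. Of 3 pluripotency genes (Pou5f1, Sox2 and Nanog), 3 had one in MES, 2 in HB, 1 in HE and 0 in HP and MAC. The endothelial genes Cdh5 and Pecam1 both had one in HE, Pecam1 alone in HP and neither in the other stages. The part of such cells in the DHSs described here, such as those of Gfi1 in HB and HE, was not tested.

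The promoters of the repressor genes and of the corepressor genes were listed at different stages. All 4 corepressor genes had a promoter DHS in every stage, whereas Gfi1 had one in HB and HE only and Gfi1b one in MAC only. A promoter DHS was thus listed for 4 of the 6 genes in MES and HP, against 57.2% and 50.1% of all protein-coding genes. It was listed for 5 of the 6 in HB, HE and MAC, against 58.9%, 61.7% and 50.2%. A promoter DHS in all 5 stages, as at the corepressor genes, was found for 43.4% of protein-coding genes. The pattern of Gfi1, with HB and HE only, was shared by 1.37% of genes, and that of Gfi1b, with MAC only, by 1.77%.

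DHSs away from promoters were counted next. At least 1 was assigned to 2 of the 6 genes in MES, HB and HP, against 30.1%, 32.3% and 25.1% of protein-coding genes. In HE it was 3 of the 6 against 42.1%, and in MAC 5 of the 6 against 47.5%. The shares of the members were near those of all genes in every stage but MAC. In MAC every member but Hdac1 had such a DHS, and in MES only Gfi1 and Gfi1b did. The MAC count was lower under alternatives given below. Gfi1 had 0 DHSs in MAC by gene span, and Gfi1b had 0 there with either restriction to wider DHSs. No member DHS lay near the limit of 1 kb, since the farthest promoter DHS had its edge 57 bp from a TSS and the nearest of the others 2844 bp, both at Gfi1 in HB. In all, 18 DHSs belonged to the repressor genes and 29 to the corepressor genes. From MES to MAC the repressor genes had 2, 5, 7, 1 and 3, and the corepressor genes 4, 4, 6, 5 and 10. The mean over all protein-coding genes was 1.13 DHSs per gene in MES, 1.25 (HB), 1.66 (HE), 0.924 (HP) and 1.85 (MAC). This mean was highest in MAC and HE, where the corepressor genes also had most. It was lowest in HP, where the corepressor genes had more than in MES or HB. The repressor genes had most in HE. This depends on assigning DHSs by start sites: by gene span, an alternative described below, the repressor genes had 1, 3, 3, 2 and 3, with HE no higher than HB or MAC, and the counts of the corepressor genes were as before.

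**Figure D1:**
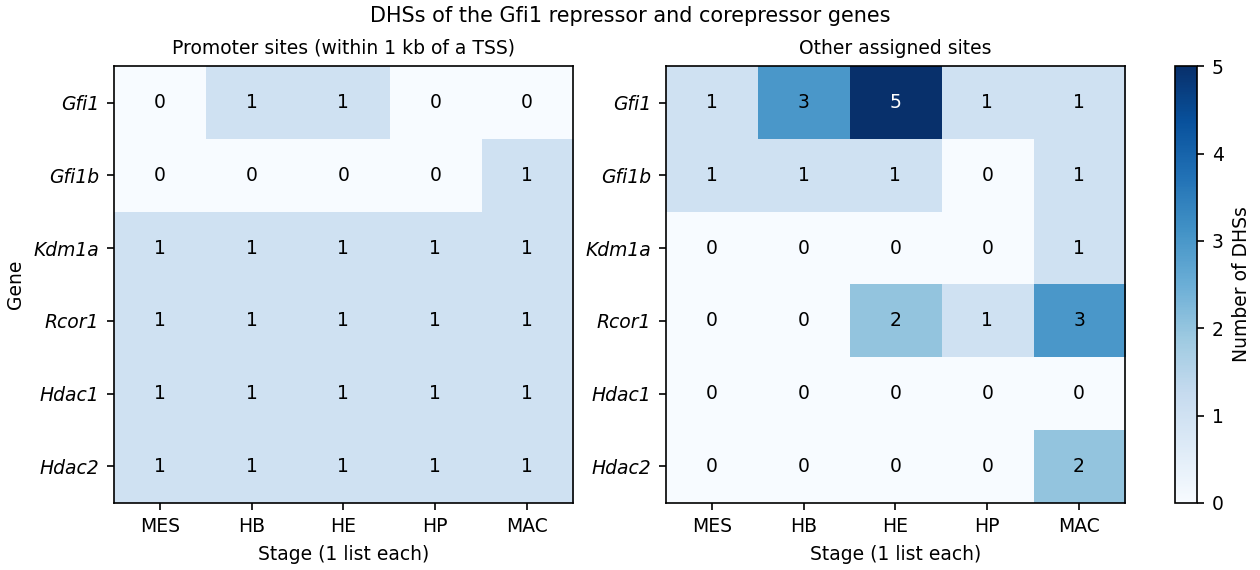
Number of promoter DHSs (left) and of other assigned DHSs (right) for each of the 6 genes (rows) in each stage (columns, 1 list each). The 4 corepressor genes have 1 promoter DHS in every stage, and Gfi1 in HE has 5 other DHSs, the highest count in either panel.

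Gfi1 lies on the minus strand at chr5:107716655-107725805 (mm10) and has curated start sites at 107725805 and 107724343. The gene had 6 DHSs in HE and 4 in HB, and 1 each in MES, HP and MAC. They covered 7900 bp (HE), 2900 bp (HB), 600 bp (MES), 1100 bp (HP) and 800 bp (MAC). In HE, as many DHSs or more were assigned to 4.85% of protein-coding genes. Over all 5 lists Gfi1 had 13 DHSs, and 14.6% of genes had as many or more, against a median of 5 per gene.

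The promoter DHS of Gfi1 lay between its start sites, in an intron of the longer transcript. It was 900 bp wide in HB, at 107724400-107725299, and 2000 bp wide in HE, at 107723726-107725725, where it took in the inner start site and the whole of the HB interval. In HE, 8.76% of promoter DHSs were as wide or wider, whereas in HB 80.3% were. No DHS was listed there in MES, HP or MAC. The middle 300 bases of this promoter region are printed because Gfi1 is the one member whose promoter DHS was listed in HB and HE and in no other stage. They lie at chr5:107724637-107724936 in mm10 and, like all sequences here, are written 5′ to 3′ on the strand of the gene. Capitals mark exact matches, on either strand, to any of 10 short consensus sequences, in which N is any base. The consensus of the repressors themselves (GFI) was AATCNNNGC. For other blood factors the letters were AGATAA as the GATA match, TGTGGTT as the RUNX match, CCGGAAGT as the ETS match and GAGGAAGT as the match for PU.1, itself an ETS factor. More widely used factors were given by CAGCTG for the E-box, by TGANTCA for AP1, by CATTCC for TEAD, by GGGCGG for SP1 and by the 5 letters of the CCAAT box.
Gfi1 promoter region: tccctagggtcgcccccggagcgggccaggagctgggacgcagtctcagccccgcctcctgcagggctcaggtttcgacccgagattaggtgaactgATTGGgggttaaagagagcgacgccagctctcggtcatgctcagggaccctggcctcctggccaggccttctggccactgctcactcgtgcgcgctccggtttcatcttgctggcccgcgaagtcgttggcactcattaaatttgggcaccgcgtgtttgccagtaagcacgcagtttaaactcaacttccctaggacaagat

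The match in capitals is a CCAAT box read on the other strand. The central 500 bp of the region held 59.4% G and C, and its CpG dinucleotides reached 0.726 of the number that this composition would give. At least 50% GC and a ratio of at least 0.6 were taken here as CpG-rich, which this region was, as were 64.8% of all regions with a promoter DHS.

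Beyond its promoter, Gfi1 had 6 merged regions, named here by the distance of their middle from the nearest curated TSS, negative when upstream. The upstream ones formed a series of 4. The -10.4 kb region, which was intergenic, had a DHS in HE only (700 bp). The -24.0 kb region had one in HE (1400 bp) and one in MAC (800 bp). The -33.6 kb region had one in HB (500 bp), HE (1500 bp) and HP (1100 bp), and the -46.6 kb region one in HE only (1300 bp). The outer 3 lay in introns of Evi5, the neighboring gene, whose own TSS is 143 kb from that of Gfi1. HE was thus the one stage with a DHS in all 4, HB and HP shared the -33.6 kb region, and MAC shared the -24.0 kb region. The -10.4 kb DHS, at 700 bp, was narrower than the HE median of 1200 bp. It was no longer listed when each list was restricted to DHSs no narrower than its median, or to its widest 17734.

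The intervals at -33.6 kb were nested, since the 500 bp of HB lay within those of HP and HE, and the widest covered 1500 bp. At -24.0 kb the 800 bp of MAC lay within the 1400 bp of HE. Both are printed because they were the upstream regions listed in more than 1 stage, with the first being the one DHS of Gfi1 in HP and the second the one in MAC. The first stretch is chr5:107759246-107759545 and the second chr5:107749635-107749934.
Gfi1 -33.6 kb region (HB, HE, HP): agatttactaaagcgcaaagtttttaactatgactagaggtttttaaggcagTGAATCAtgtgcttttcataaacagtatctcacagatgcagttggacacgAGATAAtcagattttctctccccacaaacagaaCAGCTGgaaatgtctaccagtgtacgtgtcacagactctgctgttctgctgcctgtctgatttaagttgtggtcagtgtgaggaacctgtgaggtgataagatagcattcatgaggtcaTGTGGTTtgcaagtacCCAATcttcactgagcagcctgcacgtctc
Gfi1 -24.0 kb region (HE, MAC): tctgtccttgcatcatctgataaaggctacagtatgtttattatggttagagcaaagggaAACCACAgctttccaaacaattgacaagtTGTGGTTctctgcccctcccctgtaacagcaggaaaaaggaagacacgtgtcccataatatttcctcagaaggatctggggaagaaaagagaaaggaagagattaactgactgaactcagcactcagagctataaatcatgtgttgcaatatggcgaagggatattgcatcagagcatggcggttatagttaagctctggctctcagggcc

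In the first stretch the capitals mark, in order, an AP1, a GATA, an E-box, a RUNX and a CCAAT match. In the second they mark 2 RUNX matches, one on each strand. Over the central 500 bp, a GATA match was present in all 4 of the upstream regions and in neither of the other 2 away from the promoter. Among all 51806 regions without a promoter DHS for which a 500 bp sequence could be read, 27.4% held a GATA match. RUNX was found in the -24.0 kb and -33.6 kb regions and in 13.4% of all such regions. E-box matches lay in 3 of the 6 Gfi1 regions (32.2% of all), AP1 in 2 (27.4%), the CCAAT box in 2 (46.5%), TEAD in 1 (29.3%) and SP1 in 1 (14.2%). A match of letters is a description of the sequence and does not show that a protein is bound.

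The other 2 regions of Gfi1 were downstream of the TSS. At 3.39 kb, in an intron of Gfi1, a DHS of 1100 bp was listed in HB only. At 36.1 kb, downstream of the gene and intergenic, DHSs were listed in MES (600 bp), HB (400 bp) and HE (1000 bp), and they shared 192 bp. This was the one DHS of Gfi1 in MES. It differed from the upstream regions in composition as well, with 59.0% GC and a CpG ratio of 0.755 against 43.4 to 48.0% and 0.209 to 0.275 for the 4 upstream regions. It was the one CpG-rich region among the 17 member regions without a promoter DHS, and 2.93% of all such regions were CpG-rich. The stretch chr5:107688103-107688402 shows its many cg pairs.
Gfi1 36.1 kb region (MES, HB, HE): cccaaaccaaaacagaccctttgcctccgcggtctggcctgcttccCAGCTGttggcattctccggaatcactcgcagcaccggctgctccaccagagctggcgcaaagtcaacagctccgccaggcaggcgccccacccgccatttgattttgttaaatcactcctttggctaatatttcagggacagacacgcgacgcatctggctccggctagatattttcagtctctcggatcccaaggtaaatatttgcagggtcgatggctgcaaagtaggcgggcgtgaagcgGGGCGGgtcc

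Here the capitals are an E-box and an SP1 match. The whole 500 bp held 2 E-box and 4 SP1 matches and none to GATA or RUNX.

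The assignment of these regions rests on start sites. When a DHS was instead given to the protein-coding gene whose span held it or was nearest, an alternative added after the data were seen, Gfi1 had 3 DHSs in place of 13. They were 2 in HB and 1 in HE, with 0 in the other stages. The promoter DHSs were unaffected by this choice.

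**Figure D2:**
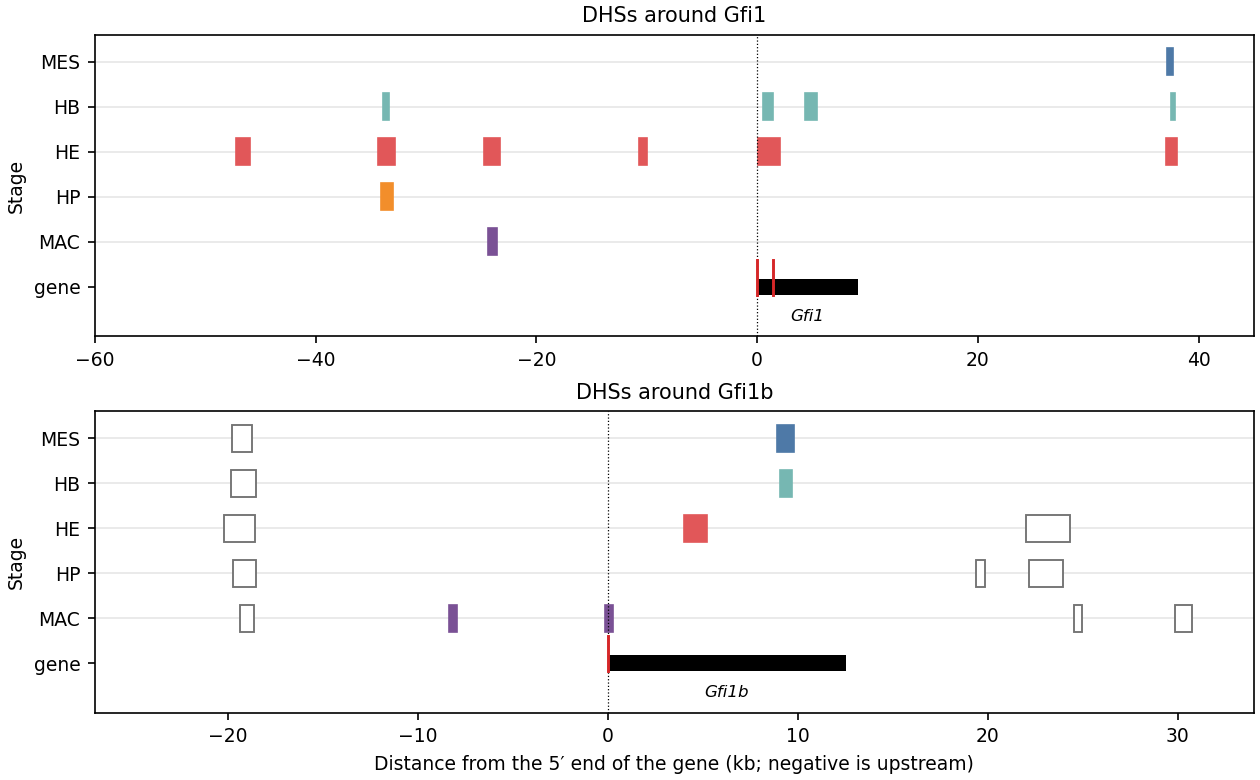
Listed DHSs by stage around Gfi1 (top) and Gfi1b (bottom). Bars show deposited intervals to scale against the distance in kb from the 5′ end of the gene (at Gfi1 the outer of its 2 start sites, so downstream positions there exceed those in the text, which use the nearer one); filled bars were assigned to the gene and open bars to a neighbor, the black bar is the gene and red ticks are curated start sites. All 4 upstream Gfi1 positions carry a bar in HE, and Gfi1b has no filled bar in HP.

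Gfi1b lies on the minus strand at chr2:28609450-28621982 with a single TSS at 28621982. It had 1 DHS each in MES (900 bp), HB (600 bp) and HE (1200 bp), 0 in HP and 2 in MAC (800 bp together). The total of 5 was the median of all genes. Its promoter DHS, in MAC only, was 400 bp wide at 28621725-28622124 and contained the TSS. That was narrow for a promoter, since 89.9% of the promoter DHSs in MAC were as wide or wider. With each list restricted to the DHSs no narrower than its median, or to its widest 17734, this site was no longer listed, and Gfi1b then had no promoter DHS in any stage. The 250 bases before the TSS (RefSeq, GRCm38.p6) are chr2:28621983-28622232 and are printed for comparison with the promoter of a corepressor gene below.
Gfi1b promoter: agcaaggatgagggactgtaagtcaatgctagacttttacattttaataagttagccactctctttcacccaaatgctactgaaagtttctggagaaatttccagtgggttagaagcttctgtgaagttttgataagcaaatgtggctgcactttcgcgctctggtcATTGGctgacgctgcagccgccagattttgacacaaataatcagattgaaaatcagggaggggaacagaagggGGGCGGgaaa

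Capitals mark a CCAAT box and an SP1 match. A CCAAT box was present in 35.5% and SP1 in 43.9% of 20488 RefSeq promoters cut to the same 250 bases. With 44.4% GC and a CpG ratio of 0.421, the stretch was below the medians of those promoters, which were 56.0% and 0.550. The region around the MAC DHS had 52.8% GC and a ratio of 0.448 and was not CpG-rich, unlike the promoter regions of the other 5 members.

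Of the remaining 3 regions of Gfi1b, 2 were listed at stages other than MAC. In an intron at 9.36 kb, DHSs were listed in MES (900 bp) and HB (600 bp), and the interval of HB lay within that of MES. Nearer to the TSS, at 4.61 kb and also intronic, a DHS of 1200 bp was listed in HE only. The -8.14 kb region was intergenic and had a DHS of 400 bp in MAC only. The DHSs assigned to Gfi1b thus lay at 9.36 kb in MES and HB, at 4.61 kb in HE, and at the promoter and -8.14 kb in MAC. None of these regions was shared between the first 2 stages and the later ones. With either restriction to wider DHSs, the HB interval and both MAC intervals were no longer listed. Of all regions without a promoter DHS, 71.3% were listed in a single stage. The MAC region upstream is printed because its central 500 bp held 4 E-box matches, 3 of which lie in the stretch chr2:28629974-28630273.
Gfi1b -8.1 kb region (MAC): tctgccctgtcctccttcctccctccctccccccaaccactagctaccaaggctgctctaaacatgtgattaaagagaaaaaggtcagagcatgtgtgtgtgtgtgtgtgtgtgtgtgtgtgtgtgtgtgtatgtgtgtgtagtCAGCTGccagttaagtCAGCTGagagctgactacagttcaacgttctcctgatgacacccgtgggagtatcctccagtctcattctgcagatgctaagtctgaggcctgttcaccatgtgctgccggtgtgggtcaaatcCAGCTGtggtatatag

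The region at 4.61 kb held 2 AP1 matches and that at 9.36 kb held 1 AP1, 1 TEAD and 1 CCAAT match. No GATA, RUNX or GFI match was found in the 4 regions of Gfi1b, which says only that these letters are not in these windows.

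HP was the stage in which Gfi1b had no assigned DHS. Yet DHSs were listed close to it that lay nearer to the TSS of Gtf3c5, a gene for a subunit of a general transcription factor of RNA polymerase III. In HP these were at 19.6 kb (500 bp, 28602120-28602619) and 23.1 kb (1800 bp, 28598020-28599819) downstream of the Gfi1b TSS, beyond the end of the gene. In HE one lay at 23.2 kb (28597670-28599969), overlapping that of HP, and in MAC others lay at 24.8 kb and 30.3 kb. With DHSs given to the gene with the nearest span, Gfi1b had 9 DHSs, with 2 in HE, 2 in HP and 3 in MAC. The zero in HP therefore depends on the rule of assignment. The promoters of the neighbors on both sides, Tsc1 with its TSS 19.3 kb away and Gtf3c5 with its TSS 38.7 kb away, had DHSs in all 5 stages.

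The genes most like the repressor genes were sought among those with a promoter DHS at the same stages, by the sum over 5 stages of the differences in base pairs covered by assigned DHSs. Among 286 candidates, D430041D05Rik and Ptgis, a prostacyclin synthase, differed from Gfi1 by 2400 bp each. Both covered most in HE, with 7100 and 8100 bp against 7900 bp for Gfi1. Afap1l1 followed with a difference of 2800 bp, tied with others at that value. For Gfi1b, with 371 candidates, Ciita, the transactivator of MHC class II genes, was nearest with a difference of 1200 bp, then Ugt1a7c with 1300 bp and Dhx58 with 1400 bp, tied with another gene at that value.

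Kdm1a, Rcor1, Hdac1 and Hdac2 had a promoter DHS in all stages, and at each gene the 5 intervals overlapped across the curated TSS. Kdm1a, on the minus strand at chr4:136550533-136602787 with its curated TSS at 136602723, encodes the demethylase. Its promoter DHS was 1700 bp wide in HE, 1000 bp in HB, 700 bp in both HP and MAC, and 600 bp in MES. The 600 bp shared by all 5 ran from -294 to 305 bp around the TSS and were the whole interval of MES. In MES 86.8% and in HP 87.3% of promoter DHSs were as wide or wider, and with lists restricted to DHSs no narrower than the median the promoter DHS of Kdm1a was no longer listed in these 2 stages.

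Rcor1, on the plus strand at chr12:111039367-111115902, encodes the scaffold that ties LSD1 to the deacetylases. Its promoter DHS was 1600 bp wide in HE, 1400 bp in HB, 1300 bp in both MES and HP, and 700 bp in MAC. The shared 700 bp ran from -491 to 208 bp. Its middle lay upstream of the TSS in every stage, by the most in HE (-497 bp) and by the least in MAC (-142 bp).

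The genes of the deacetylases had promoter DHSs of like extent. Hdac1, on the minus strand at chr4:129516104-129542646, had widths of 1700 bp (HE), 1500 bp (HB), 1400 bp (MES), 1000 bp (HP) and 900 bp (MAC), and 811 bp were shared, from -471 to 339 bp. The middle lay downstream of the TSS in MES, HB and HE, by 229, 181 and 189 bp, and upstream in HP and MAC, at -68 and -110 bp. Hdac2, on the plus strand at chr10:36974297-37001889 with its curated TSS at 36974544, had 1800 bp (HE), 1300 bp (HP), 1200 bp (HB), 1000 bp (MES) and 900 bp (MAC). Here 900 bp were shared, from -463 to 436 bp, the whole interval of MAC.

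**Figure D3:**
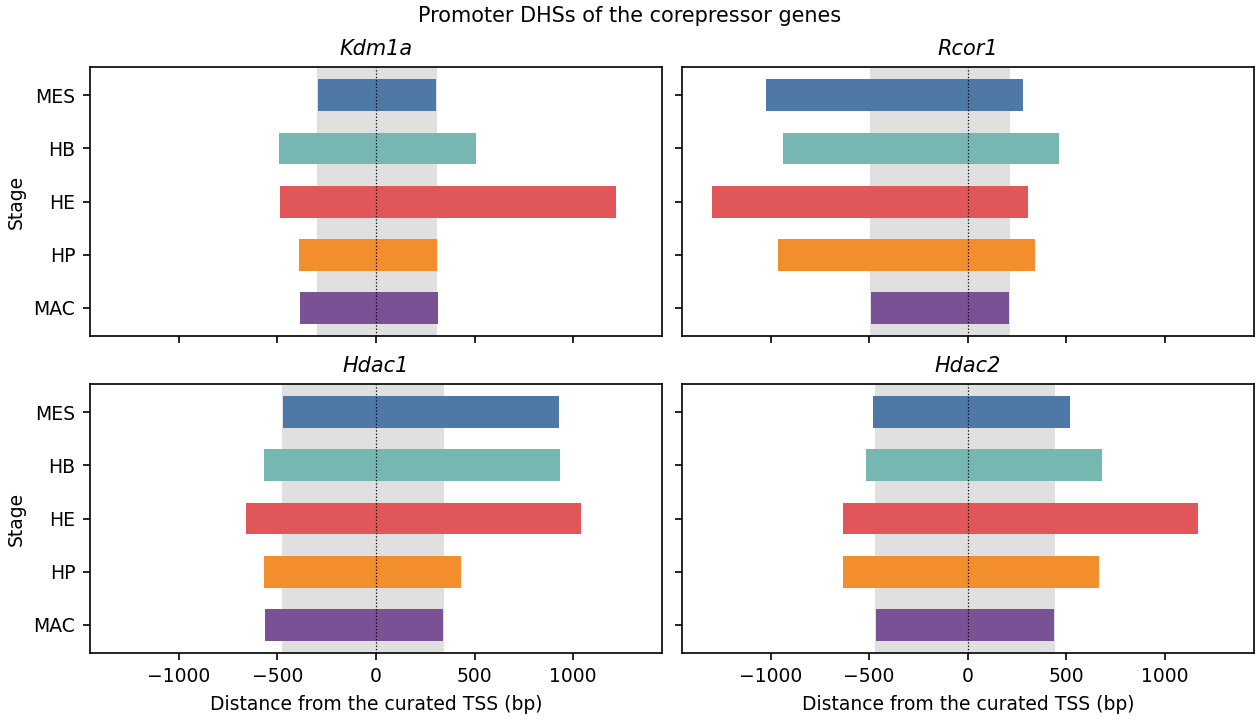
Promoter DHSs of the 4 corepressor genes by stage, as deposited intervals against the distance in bp from the curated TSS (dotted line, negative is upstream). The gray band is the part shared by all 5 intervals, which is 600 bp at Kdm1a, 700 bp at Rcor1, 811 bp at Hdac1 and 900 bp at Hdac2.

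All 4 corepressor promoter DHSs were widest in HE, at 1600 to 1800 bp. The median width of promoter DHSs over all genes was also highest in HE (1600 bp), followed by HB (1200 bp), HP (1100 bp), MES (1000 bp) and MAC (800 bp), so the HE intervals were wider across the whole list. Set against their own list, the promoter DHSs of Hdac1 in MES and HB were among the wider ones, with 7.46% and 10.8% of promoter DHSs as wide or wider. Those of Kdm1a lay below the median in every stage but HE.

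**Figure D4:**
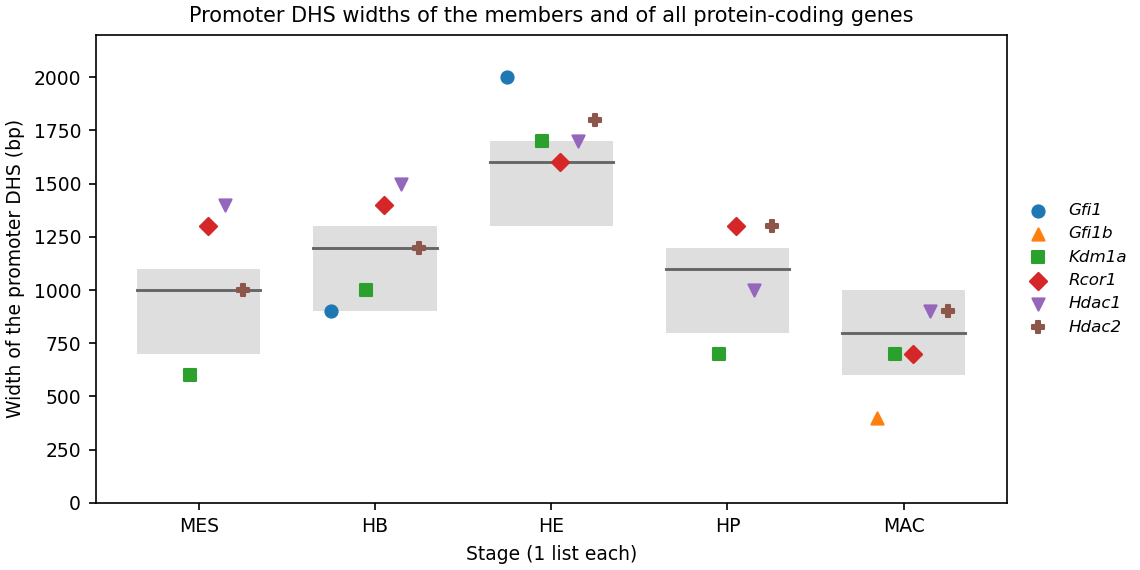
Width in bp of the promoter DHS of each of the 6 genes (symbols) by stage, beside the interquartile range (gray boxes) and median (line) of the promoter DHSs of all protein-coding genes in the same list. Gfi1 in HE, at 2000 bp, is the widest of the members, and Gfi1b in MAC, at 400 bp, the narrowest.

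The promoter regions of the corepressor genes shared a CpG-rich sequence, with 63.8 to 78.0% GC and CpG ratios of 0.839 to 0.995 over the central 500 bp. Each held at least 1 SP1 match, as did 67.8% of all regions with a promoter DHS. Kdm1a and Hdac1 held 6 SP1 matches each, Rcor1 3 and Hdac2 2. The 250 bases before the Rcor1 TSS (RefSeq, GRCm38.p6), at chr12:111039117-111039366, lie inside the part that was listed in all 5 stages and are shown as the example.
Rcor1 promoter: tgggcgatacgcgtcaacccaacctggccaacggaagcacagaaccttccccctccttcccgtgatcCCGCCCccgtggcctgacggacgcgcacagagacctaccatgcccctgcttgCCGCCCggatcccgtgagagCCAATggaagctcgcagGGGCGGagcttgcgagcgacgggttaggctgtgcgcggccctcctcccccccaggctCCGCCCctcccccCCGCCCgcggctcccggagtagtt

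The 6 matches in capitals are 5 to SP1, on either strand, and 1 to the CCAAT box. With 70.4% GC and a CpG ratio of 0.838, this stretch stands against the 44.4% and 0.421 of the Gfi1b promoter above. A ratio as high as that of Rcor1 was found in 22.0% of RefSeq promoters, and as high as that of Gfi1b in 59.2%.

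**Figure D5:**
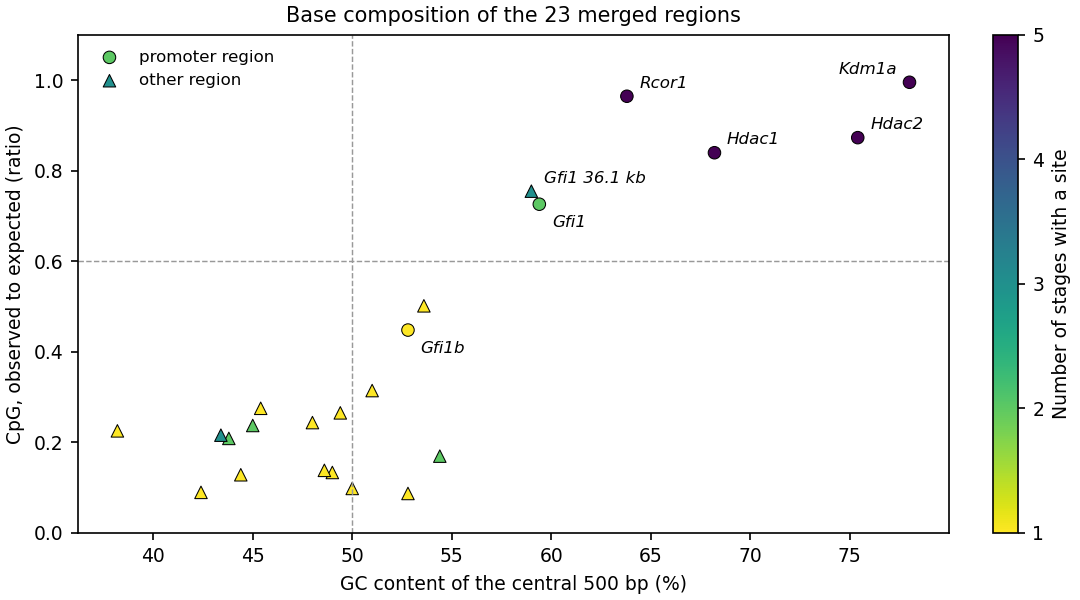
Observed to expected CpG ratio against GC content (%) of the central 500 bp of the 23 merged regions; circles are promoter regions, triangles other regions, and color gives the number of stages with a DHS. Dashed lines mark 50% GC and a ratio of 0.6; the 4 corepressor promoters, the Gfi1 promoter and the 36.1 kb region of Gfi1 lie above both.

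Beyond their promoters, the DHSs of the corepressor genes were listed mostly in MAC. Of all regions without a promoter DHS, 38.7% were listed in MAC only. Kdm1a had 1, an intronic DHS of 800 bp at 32.5 kb in MAC. Rcor1 had 5 regions, of which those at -29.3 kb (600 bp), -22.3 kb (100 bp, the narrowest member DHS) and 32.4 kb (1100 bp, intronic) were listed in MAC only. The -10.0 kb region of Rcor1 had a DHS in HE only (1400 bp), and the intronic region at 54.8 kb had one in HE (1200 bp) and one in HP (800 bp). Hdac2 had 2 regions, at -57.5 kb (600 bp) and 40.0 kb (400 bp), both intergenic and in MAC only. No corepressor gene had a DHS away from its promoter in MES or HB. With promoters included, Rcor1 had 11 DHSs over the 5 lists, Hdac2 7, Kdm1a 6 and Hdac1 5. As many or more were assigned to 19.9%, 39.7%, 48.2% and 62.8% of protein-coding genes, in that order.

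Hdac1 was the member with its promoter DHS alone. Even so, 63 DHSs within 100 kb of its TSS were assigned to other genes, the nearest being at -12.9 kb and belonging to Lck, which encodes a kinase of T cells. Around Hdac2, in contrast, 0 DHSs within 100 kb were assigned to another gene.

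A pair of corepressor regions are printed for their sequence, that of Kdm1a at chr4:136570056-136570355 because it held 4 AP1 matches in a row of near-identical repeats, and that of Rcor1 at chr12:111093989-111094288 because it held a GFI match, the consensus of the repressors themselves.
Kdm1a 32.5 kb region (MAC): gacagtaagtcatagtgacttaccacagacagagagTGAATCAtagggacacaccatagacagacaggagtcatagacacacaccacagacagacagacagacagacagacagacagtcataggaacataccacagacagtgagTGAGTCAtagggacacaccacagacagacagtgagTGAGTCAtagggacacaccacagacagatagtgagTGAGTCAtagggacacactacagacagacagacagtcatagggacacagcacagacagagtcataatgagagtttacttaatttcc
Rcor1 54.8 kb region (HE, HP): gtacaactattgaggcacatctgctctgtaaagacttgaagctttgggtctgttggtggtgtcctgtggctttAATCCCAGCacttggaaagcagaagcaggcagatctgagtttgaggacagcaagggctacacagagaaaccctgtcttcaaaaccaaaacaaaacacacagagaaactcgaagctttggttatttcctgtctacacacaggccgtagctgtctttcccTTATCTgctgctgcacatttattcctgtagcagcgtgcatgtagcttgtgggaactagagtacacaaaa

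In the Kdm1a stretch all matches in capitals are AP1. In the Rcor1 stretch they are the GFI match and, farther on, a GATA match read on the other strand. A GFI match was found in 2 of the 23 member regions, this one and the Hdac1 promoter region, and in 16.1% of all merged regions. None of the 11 regions of Gfi1 and Gfi1b held it.

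Over the 23 regions, 4 were listed in all 5 stages and 13 in a single stage. The 4 were the corepressor promoters. Of all merged regions 13.2% were listed in all 5 stages and 60.2% in 1. None of the 11 regions of the repressor genes was listed in all 5 stages, and 6 were listed in 1. Most of these 11 had no promoter DHS, and of all regions without one 2.85% were listed in all 5 stages. Of the 17 regions without a promoter DHS, 12 were listed in a single stage, which was MAC for 7, HE for 4 and HB for 1. Among all regions without a promoter DHS, 71.3% were listed in a single stage, with 38.7% in MAC only and 18.8% in HE only, so the single-stage share of the members was near that of the genome.

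The wider set of corepressor and SNAG genes was given by 25 named genes, all of which were matched. A promoter DHS was found for all 25 in HE, for 23 in both MES and HP, for 22 in HB and for 18 in MAC, and 17 had one in all 5 stages. Over all protein-coding genes the shares were 61.7% (HE), 57.2% (MES), 50.1% (HP), 58.9% (HB) and 50.2% (MAC), and 43.4% for all 5 stages. Of 11 genes for partners and paralogs of CoREST and LSD1, all had a promoter DHS in MES, HB, HE and HP and 9 in MAC, where Rcor2 and Rcor3, the paralogs of Rcor1, had none. Of 5 genes for other zinc finger proteins with a SNAG domain, 5 had one in MES, HB and HE, 4 in HP and 2 in MAC. Snai2 and Scrt1 had none in MAC, and Insm1 none in HP or MAC. None of them had the pattern of Gfi1 (HB and HE only) or that of Gfi1b (MAC only), which 1.37% and 1.77% of all protein-coding genes had.

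The remaining 9 genes encode other deacetylases of class I and subunits of the SIN3 and NuRD complexes, which also hold HDAC1 and HDAC2. All 9 had a promoter DHS in HE, 8 in HP, 7 in both MES and MAC, and 6 in HB. Sin3a, Sin3b, Chd4, Mbd3, Mta2 and Hdac3 had one in all 5 stages. Hdac8 had one in HE, HP and MAC, and the NuRD genes Mta3 in MES, HE and HP and Mta1 in HE only. HE was thus the one stage in which all 25 genes had a promoter DHS, in the list with the highest share over all genes.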

How the data were processed

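DNaseI-seq was measured in 5 samples, 1 per stage. The study's methods state that the authors used CutAdapt for trimming, Bowtie for alignment to mm10, Picard to remove duplicates, and DFilter with 100 bp bins as peak caller; the submitters' processing notes also name HOMER. Versions are not given in the sources used here. The deposited lists give the start and end of each site (base pairs), without score, coverage or read count, so depth and precision per sample cannot be read from them; the read totals that the study gives for each library were not used. Every width was a multiple of 100 bp.

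Samples were grouped by the stage in their labels. Start sites came from RefSeq GRCm38.p6, with curated mRNAs for distances. Following the study, windows of 500 bp around each site were joined where they overlapped by 125 bp or more, with the middle of a site in place of its summit. Scripts ran in Python 3.11.15 with numpy 2.4.6 and matplotlib 3.10.9 and were tested on simulated data. No test between stages was made, since each had 1 list; counts were set beside all 21000 protein-coding genes. The genes named were the 6 members, listed corepressor genes with a promoter site in some but not all stages, genes next to a member where a site lay nearer to them, and the 3 most like Gfi1 and Gfi1b, beside the genes for sorting and cell type markers; the listed genes with a promoter site in all 5 stages that are named were chosen after their values were seen. Members and lists were chosen with earlier results of these data known. RefSeq promoter sequences were found for 5 of the 6 members. Alternatives were other promoter reaches, curated start sites only, wider sites only, a reach of 50 kb, other merging rules and, added after seeing the data, assignment by gene span.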

Additional observations from a re-analysis of the deposited data

How the results depend on the processing

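The counts per stage of members with a promoter site (25 values under alternatives), of assigned sites (25) and of merged regions (9) all stayed within 1.5 times of those reported. Of 150 counts for a single member and stage, 17 moved by more, and all concerned Gfi1, Gfi1b, Kdm1a or Rcor1. With either restriction to wider sites, Gfi1 in HB went from 4 to 2, Gfi1b in HB from 1 to 0 and Gfi1b in MAC from 2 to 0; without sites narrower than the median, Gfi1 in MES and Kdm1a in MES and HP also went from 1 to 0. By gene span, Gfi1 went to 0 in MES, HP and MAC, 2 in HB and 1 in HE, and Gfi1b to 2 in HE and HP. The total of 47 assigned sites became 46 within 50 kb, 47 with the nearest start site required inside genes too, 41 by gene span, 38 with the widest sites and 34 when sites narrower than the median were left out. Under the last, Rcor1 in HP went from 2 to 1 and Gfi1 had 8 in all. Gfi1 in HE went from 6 to 4 with either restriction to wider sites, a change at the limit of 1.5 times and so not among the 17. The cause was not tested. Without read counts per site, one near the calling threshold cannot be told from an absent one. No paired analysis was possible because each stage had 1 list.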
